A study of Mus musculus with 8 samples.

Results

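Calprotectin, the heterodimer encoded by S100a8 and S100a9, and 7 further S100 genes (S100a4, S100a6, S100a10, S100a11, S100a13, S100a14 and S100a16) were followed in bulk RNA-seq of mouse pancreas. These 9 of the 15047 genes in the deposited table were chosen by their measured differences between lean and obese mice, so those differences are described here and were not tested. The study set obesity caused by diet and obesity caused by leptin deficiency against lean mice in a model of pancreatic carcinogenesis. All 8 mice were males. The LFD group (n = 3) were C57BL/6 WT mice on a low-fat diet, the HFD group (n = 3) were C57BL/6 WT mice on a high-fat diet with 60% of calories from fat, and the ob/ob group (n = 2) were leptin-deficient C57BL/6J; ob/ob mice on standard chow. Mice entered their diet groups at an age of 4 weeks, and the diets ran for 10 weeks. By the description of the model, all groups carried pancreatic transplants of mT organoids, which were grown from mouse pancreatic tumours. The transplant comes from that description and not from the sample labels. The ob/ob mice differed from the LFD mice in genotype and in diet, and the effects of these cannot be told apart.

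S100 proteins are small calcium-binding proteins that work mostly as dimers, inside cells as calcium-dependent partners of enzymes and of the cytoskeleton, and outside cells as signals. Calprotectin is packed into the cytoplasm of neutrophils and monocytes, starves microbes of zinc and manganese, and after release acts as an alarmin on Tlr4 and on the receptor Ager. Other members are made by epithelium, fibroblasts and macrophages, and pancreatic tumours are known for a high content of several of them.

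Values are regularised logarithm (rlog) values, which are on a log2 scale, corrected for library size and pulled toward each gene's mean where reads were few. No read counts were used, so the depth behind each value is unknown, and levels are compared between mice and not between genes. In bulk tissue, fewer cells of a type and less RNA per cell cannot be told apart. The 27 acinar genes, which mostly encode digestive enzymes and mark pancreas, held 60.7% to 62.9% of the summed linear values in LFD mice. This share was 59.9% in HFD replicate 1, 40.4% in HFD replicate 2 and 21.2% in HFD replicate 3, and among ob/ob mice it was 57.2% in replicate 1 and 23.9% in replicate 2. HFD replicate 1 and ob/ob replicate 1 therefore lay near the LFD mice in acinar content, and HFD replicates 2 and 3 and ob/ob replicate 2 stood apart. With limma on all genes, 0% passed an adjusted p of 0.05 in HFD against LFD (smallest adjusted p = 0.0864, with 2985 genes under 0.05 before adjustment), 0% in ob/ob against LFD (smallest 0.135, 2831 genes) and 0% in ob/ob against HFD (smallest 0.883, 588 genes).

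The calprotectin genes had the largest HFD difference among the 9. S100a8 read 5.69, 6.21 and 6.10 in the LFD mice, 7.78, 8.69 and 9.47 in the HFD mice, and 7.48 and 7.17 in the ob/ob mice. Every HFD mouse lay above both ob/ob mice, and every ob/ob mouse above all LFD mice, with no overlap between any pair of groups. The LFD mice averaged 6.00 ± 0.28 (SD, n = 3), the HFD mice 8.65 ± 0.85 (SD, n = 3) and the ob/ob mice 7.32 ± 0.21 (SD, n = 2). The HFD mean exceeded the LFD mean by 2.65 (SE 0.39), which is 6.26-fold on the rlog scale and rank 8 from the highest among 15047 genes, and the ob/ob mean exceeded it by 1.32 (SE 0.44), rank 688.

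S100a9, the partner subunit, read 6.35, 6.74 and 6.69 in LFD, 8.06, 9.17 and 10.10 in HFD, and 8.06 and 7.79 in ob/ob. The lowest HFD mouse and the higher ob/ob mouse were level and overlapped (a gap of -0.0023), while both groups stood clear of LFD. The HFD mean was higher than the LFD mean by 2.52 (SE 0.44), 5.74-fold and rank 11, and the ob/ob mean by 1.34 (SE 0.49). ob/ob minus HFD was -1.32 (SE 0.44) for S100a8 and -1.18 (SE 0.49) for S100a9. Both comparisons with LFD use the same 3 LFD mice and are given side by side only.

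The subunits ran together in each mouse: S100a8 minus S100a9 stayed between -0.66 and -0.28 on the log2 scale while each gene ranged over more than 3 log2 units. Their Pearson r over the 8 mice was 0.996, a description over points that share groups and acinar content. The genes face each other on chromosome 3 of GRCm38, in the Gencode annotation read here. S100a8 (ENSMUSG00000056054) lies on the plus strand at 90668978 to 90670035 and S100a9 (ENSMUSG00000056071) on the minus strand at 90692632 to 90695721, so that 22.6 kb separate their annotated ends.

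RefSeq promoter sequence, 250 bases before and 50 bases after each annotated start in GRCm38.p6, was at hand for 7 of the 9 genes; S100a10 and S100a14 were not matched. S100a16 had RefSeq starts at 90537254 and 90541146, and the counts are of genes with a match in any promoter. Both strands were searched for TATAAA (the TATA box), TGANTCA (AP-1), GGGCGG (the GC box) and TTNNGCAA (C/EBP), and no match overlapped another. TATAAA was found in promoters of 3 of the 7 genes, against 13.6% of all 32851 promoters of the same length, and these were S100a8, S100a9 and S100a4. The 30 bases around each are shown because these are the genes with the largest difference in HFD (S100a8, S100a9) or in ob/ob (S100a4), with TATAAA in capitals and each read 5′ to 3′ on the gene's strand.
S100a8, chr3:90669029-90669058, plus strand: caagctttcctcTATAAAagcagctgacac
S100a9, chr3:90695704-90695733, minus strand: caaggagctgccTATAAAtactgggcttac
S100a4, chr3:90603727-90603756, plus strand: ggcctggcagggTATAAAtaggtcagattg
The match began 30 bases before the RefSeq start of S100a8, which at 90669071 lies 93 bases inside the gene as Gencode draws it, and 31 bases before that of S100a4, and for S100a9 it began at base 1 of the annotated transcript. S100a9 also held 1 C/EBP match, on the opposite strand and 236 bases before its start, against 10.8% of all promoters and 1 of the 7 genes here. A match describes letters and not binding, and nothing is read from its absence.

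**Figure D1:**
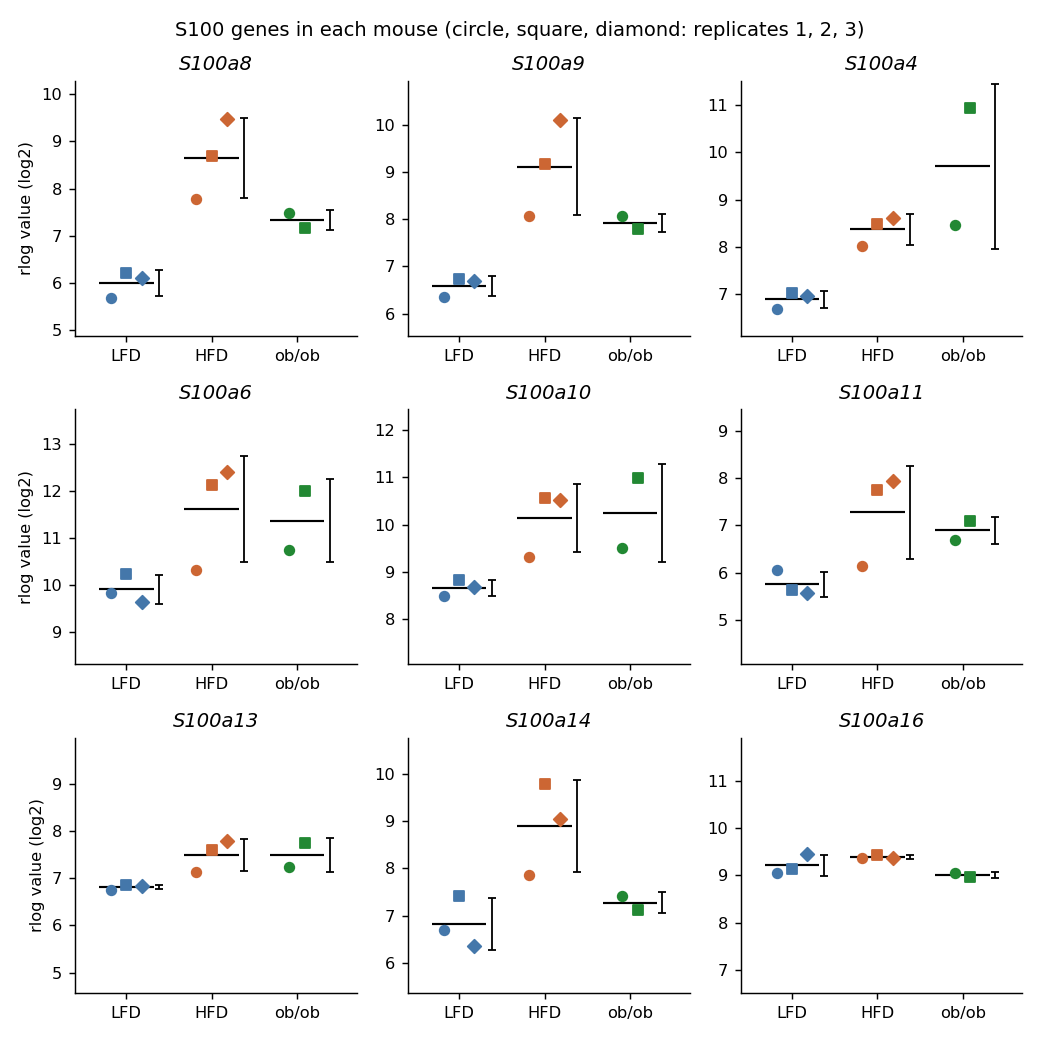
Each panel plots the rlog value (log2 scale, vertical axis, the same span in every panel) of 1 S100 gene in each mouse by group, with circles, squares and diamonds for replicates 1, 2 and 3, a line at the group mean and a bar of ± 1 SD beside it. S100a8 and S100a9 are highest in the HFD mice, S100a4 in ob/ob replicate 2 at 10.94, and S100a16 stays between 8.96 and 9.46 in all 8 mice.

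Neutrophil markers other than S100 genes had higher means in HFD, and in ob/ob a smaller and less even difference. Of 17 listed, 10 had a row, and 7, among them Ly6g, Mpo, Elane and Camp, were not analysed here. All 10 were higher in HFD than in LFD by their means, with a median of 1.47 beside 0.03 over all genes. Groups did not overlap for 5 of 10, where 12.9% of all genes did not. With limma 0 passed the adjusted test, and 8 had p under 0.05 before adjustment, beside 2985 of all 15047 genes. In ob/ob, 9 of 10 were higher, with a median of 0.87 beside 0.04 over all genes, and 3 did not overlap, near the 24.1% of all genes. There 0 passed the adjusted limma test, with 1 under p of 0.05 before adjustment, beside 2831 of all 15047 genes. Ltf, which encodes lactoferrin, was the one with a lower ob/ob mean, by -0.88, and is named after its value was seen. Mmp8, a neutrophil collagenase, differed by 1.59 (SE 0.32) in HFD and 1.31 (SE 0.35) in ob/ob. Retnlg differed by 1.77 (SE 0.42) and 0.92 (SE 0.47), and Il1r2, a decoy receptor for interleukin-1, by 1.81 (SE 0.49) and 0.83 (SE 0.55).

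The mean of the 10 markers ran from 4.81 to 5.53 in LFD, from 5.68 to 6.90 in HFD, and was 6.03 and 5.55 in ob/ob. The mean of S100a8 and S100a9 minus that marker mean averaged 1.23 ± 0.30 (SD, n = 3) for LFD mice, 2.40 ± 0.43 (SD, n = 3) for HFD mice and 1.83 ± 0.14 (SD, n = 2) for ob/ob mice. Every HFD mouse (2.08 to 2.89) and both ob/ob mice (1.73 and 1.93) exceeded every LFD mouse (0.94 to 1.55) in this difference. S100a8 and S100a9 were chosen by their differences between lean and obese mice, and that choice favours an excess over any marker mean. Some markers were also low, with LFD means of 2.71 for Mmp8 and 2.78 for Prtn3, where rlog shrinkage understates differences. The part of neutrophil number in the calprotectin values was not tested.

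Monocyte and macrophage markers, the other main source of calprotectin, followed another order, with ob/ob replicate 2 on top. Their mean over 13 genes was 7.90 to 8.24 in LFD, 8.57 to 9.45 in HFD, and 9.36 and 10.07 in ob/ob. In HFD, 12 of 13 were higher and 8 did not overlap, against 12.9% of all genes (median 1.00, beside 0.03 over all genes). In ob/ob, 13 of 13 were higher and 12 did not overlap, against 24.1% (median 1.77, beside 0.04). None passed the adjusted limma test in either comparison. Before adjustment 8 and 12 had p under 0.05, beside 2985 and 2831 of all 15047 genes. Ccr2, the receptor that brings monocytes into tissue, differed by 1.51 (SE 0.26) in HFD and 2.13 (SE 0.29) in ob/ob, and Adgre1, a macrophage surface receptor, by 1.26 (SE 0.26) and 1.88 (SE 0.29). Their part in the S100 values was likewise not tested.

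**Figure D2:**
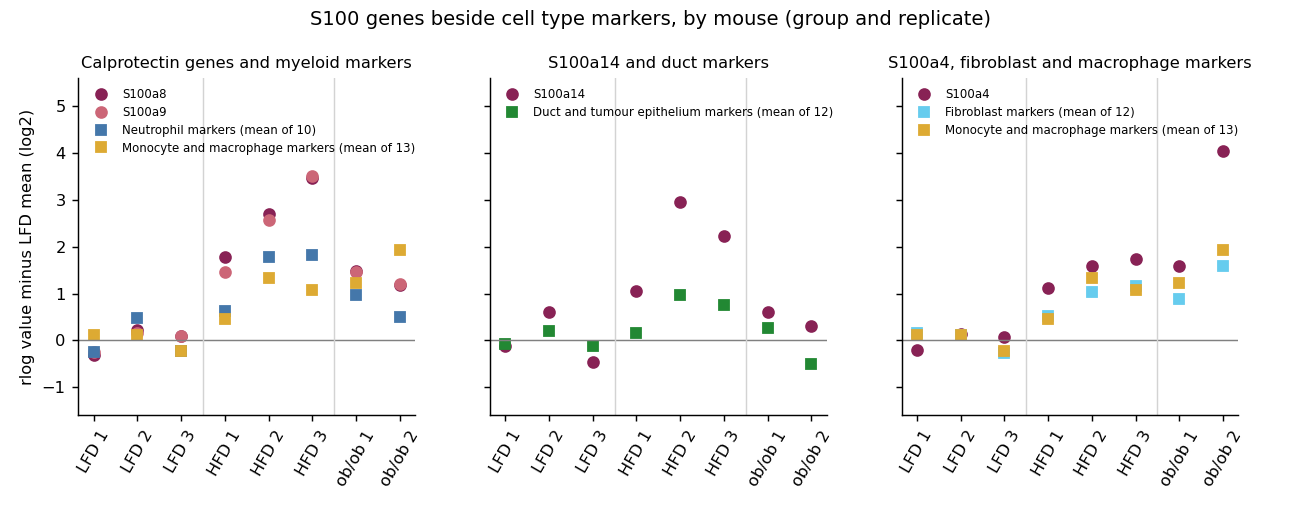
The vertical axis is the rlog value of a gene, or the mean over a marker list, minus its LFD mean (log2), and the horizontal axis gives each mouse by group and replicate; circles are S100 genes and squares are list means. S100a8 and S100a9 exceed the neutrophil mean in every HFD mouse, S100a14 exceeds the duct mean there, and S100a4 exceeds the fibroblast and macrophage means most in ob/ob replicate 2.

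Among 11 genes known to induce S100a8 and S100a9 (cytokines and transcription factors; Il17a and Il22 were not analysed here), 10 were higher in HFD and 10 in ob/ob. The medians were 0.97 and 0.90, and groups did not overlap for 6 and 9 (12.9% and 24.1% of all genes). In either comparison 0 passed the adjusted limma test, with 7 and 4 under p of 0.05 before adjustment (2985 and 2831 of all 15047 genes). Cebpe, a factor of late granulocyte maturation, read 1.83, 1.86 and 1.99 in LFD, 3.28, 3.15 and 3.45 in HFD, and 2.35 and 2.55 in ob/ob. Its order of groups was that of S100a8, with no overlap at all. Il1b differed by 1.95 (SE 0.46) in HFD and 1.15 (SE 0.51) in ob/ob. Spi1, which encodes the myeloid factor PU.1, differed by 1.36 (SE 0.37) and 1.75 (SE 0.42). Csf3, the granulocyte growth factor, read 5.45 and 4.97 in HFD replicates 2 and 3 but 2.45 in HFD replicate 1, inside the LFD range, and 3.08 and 2.82 in ob/ob.

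The 15 calprotectin receptors and adaptors had smaller values. In HFD, 11 were higher and 4 lower with a median of 0.30, and 1 in each direction did not overlap, where 12.9% of all genes lay above and 12.3% below. In ob/ob, 10 were higher and 5 lower with a median of 0.38, and 8 lay above and 3 below without overlap (24.1% and 21.8% of all genes). None passed the adjusted limma test in HFD or ob/ob. Under p of 0.05 before adjustment were 3 in HFD and 4 in ob/ob, beside 2985 and 2831 of all 15047 genes. Cd33, a sialic acid receptor of myeloid cells, differed by 1.12 (SE 0.45) in HFD and 1.71 (SE 0.50) in ob/ob, and Tlr4 by 0.70 (SE 0.29) and 1.00 (SE 0.32). Irak1, a kinase below Tlr4, was lower in both, by -0.97 (SE 0.32) and -0.79 (SE 0.36).

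S100a4, known as a marker of fibroblasts and of moving cells, had the largest ob/ob difference of the 9. It read 6.69, 7.02 and 6.96 in LFD, 8.01, 8.47 and 8.62 in HFD, and 8.47 and 10.94 in ob/ob. All obese mice stood above all LFD mice, ob/ob replicate 1 lay within the HFD range, and ob/ob replicate 2 lay far above every other mouse. The ob/ob minus LFD difference was 2.81 (SE 0.59), 7.03-fold and rank 4 of 15047, and it rested on that mouse: it was 1.58 without ob/ob replicate 2 and 4.05 without ob/ob replicate 1. HFD minus LFD was 1.48 (SE 0.53). ob/ob minus HFD was 1.34 (SE 0.59) with all mice and 0.10 without ob/ob replicate 2.

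Fibroblast markers had the same order of groups without that excess. Their mean over 12 genes was 8.89 to 9.31 in LFD, 9.67 to 10.31 in HFD, and 10.03 and 10.75 in ob/ob. In ob/ob, 12 of 12 were higher and 10 did not overlap (24.1% of all genes), and in HFD 10 of 12 and 6 (12.9%). With 0 past the adjusted limma test, 9 in ob/ob and 6 in HFD were under p of 0.05 before adjustment. Over all 15047 genes these counts were 2831 and 2985. Postn, a matrix protein of activated stroma, differed by 1.78 (SE 0.25) in HFD and 2.06 (SE 0.28) in ob/ob, and Col1a1 by 2.16 (SE 0.45) and 2.19 (SE 0.50). S100a4 minus the fibroblast mean was -2.62 to -1.93 in LFD, -1.71 to -1.66 in HFD, -1.56 in ob/ob replicate 1 and 0.19 in ob/ob replicate 2. The same difference from the macrophage mean was 0.87 in that mouse and -1.55 to -0.56 in the other 7. S100a4 was also chosen by its difference between lean and obese mice, which favours such an excess. The part of fibroblast and macrophage number was not tested.

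S100a4 (ENSMUSG00000001020) lies at 90603771 to 90606045 on the plus strand of chromosome 3. Of its 584 exon bases, 302 are shared with the annotated gene Gm42674, which was not analysed here. These exons are from a later Gencode release than the M18 used for quantification. If M18 draws them alike, reads in the shared bases could have been assigned to either gene.

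S100a6, S100a10 and S100a11 encode annexin-binding members. S100a6 (calcyclin) read 9.83, 10.25 and 9.65 in LFD, 10.32, 12.13 and 12.40 in HFD, and 10.74 and 11.996 in ob/ob. HFD replicate 1 cleared the highest LFD mouse by only 0.07, and HFD replicates 2 and 3 and ob/ob replicate 2 stood above 11.9. The differences from LFD were 1.70 (SE 0.54) in HFD and 1.46 (SE 0.60) in ob/ob, the latter 0.83 without ob/ob replicate 2.

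S100a10, which joins annexin A2 at the membrane and docks plasminogen there, read 8.49, 8.83 and 8.67 in LFD, 9.30, 10.57 and 10.53 in HFD, and 9.50 and 10.99 in ob/ob. Among obese mice HFD replicate 1 and ob/ob replicate 1, which kept their acinar share, were lowest, and neither overlapped LFD. The differences were 1.47 (SE 0.43) in HFD and 1.58 (SE 0.48) in ob/ob; the latter was 2.32 without ob/ob replicate 1 and 0.84 without ob/ob replicate 2. S100a11, a partner of annexin A1, read 6.05, 5.63 and 5.57 in LFD, 6.14, 7.74 and 7.94 in HFD, and 6.69 and 7.10 in ob/ob. HFD replicate 1 exceeded LFD replicate 1 by 0.08 only. Its differences were 1.52 (SE 0.45) and 1.14 (SE 0.50).

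The S100a11 promoter held AP-1 matches at 2 places, shown because no other promoter of the 7 genes held more than 1. TGANTCA, in capitals below as TGAGTCA, was found in promoters of 2 of the 7 genes (S100a11 and S100a16) and in 7.81% of all promoters.
S100a11 distal, chr3:93520348-93520377, plus strand: acagagacctgtTGAGTCAcagggactaca
S100a11 proximal, chr3:93520446-93520475, plus strand: gcgggcacagccTGAGTCAggctgaggggc
They began 136 and 38 bases before the annotated start. S100a11 also held GGGCGG at 64, 52 and 24 bases before the start. This motif was found in promoters of 3 of the 7 genes (S100a9, S100a11 and S100a16) and in 35.7% of all promoters. The S100a16 matches to TGANTCA and GGGCGG lay in the promoter of its start at 90541146, 3892 bases inside the gene as Gencode draws it.

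Binding partners of these proteins were mostly higher in obese mice by their means. Of 17 annexins, cytoskeletal partners and plasminogen-system genes with a row (Plg was not analysed here), 15 were higher in HFD and 15 in ob/ob, with medians of 0.54 and 0.88. Groups did not overlap for 5 and 8, beside 12.9% and 24.1% of all genes. The adjusted limma test was passed by 0, with 6 and 6 under p of 0.05 before adjustment (2985 and 2831 of all 15047 genes). Anxa2 read 10.61, 10.66 and 10.37 in LFD, 11.12, 12.999 and 12.67 in HFD, and 11.37 and 12.59 in ob/ob. S100a10 minus Anxa2 stayed between -2.43 and -1.61 in all 8 mice, with group means of -1.88, -2.13 and -1.73 in LFD, HFD and ob/ob. Anxa1 differed by 1.84 (SE 0.50) and 1.49 (SE 0.56), and Plat, the tissue plasminogen activator, by 1.30 (SE 0.45) and 1.26 (SE 0.50). Il1a, which leaves cells with S100a13, differed by 1.95 (SE 0.53) in HFD and 1.14 (SE 0.60) in ob/ob.

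S100a13, which takes part in the release of proteins that lack a signal peptide, read 6.76, 6.85 and 6.83 in LFD, 7.12, 7.59 and 7.78 in HFD, and 7.23 and 7.74 in ob/ob. The LFD mice were close together and every obese mouse lay above them. The differences were small, 0.68 (SE 0.24) in HFD and 0.67 (SE 0.26) in ob/ob, the latter 0.42 without ob/ob replicate 2.

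S100a14, an epithelial member, separated the obese groups. It read 6.68, 7.42 and 6.35 in LFD, 7.86, 9.78 and 9.05 in HFD, and 7.42 and 7.12 in ob/ob. All HFD mice stood above all other mice, and the ob/ob mice lay within the LFD range or level with its top. HFD minus LFD was 2.08 (SE 0.47), 4.23-fold and rank 54, ob/ob minus LFD was 0.45 (SE 0.52; 0.76 without LFD replicate 2, 0.22 without LFD replicate 3 and 0.30 without ob/ob replicate 1), and ob/ob minus HFD was -1.63 (SE 0.52), rank 35 from the lowest of 15047.

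Duct and tumour epithelium markers averaged highest in HFD as well, at 10.13, but their ob/ob mean (9.38) lay below that of LFD (9.50), unlike S100a14. This lower ob/ob mean rested on ob/ob replicate 2 (8.99), while ob/ob replicate 1 (9.76) lay above all LFD mice (9.39 to 9.69). HFD mice ran from 9.65 to 10.46. In HFD 9 of the 12 markers were higher (4 without overlap, against 12.9% of all genes, median 0.73), and in ob/ob 3 were higher and 9 lower (median -0.10). None passed the adjusted limma test in either. Before adjustment 5 and 3 were under p of 0.05, beside 2985 and 2831 of all 15047 genes. Krt7 differed by 1.79 (SE 0.48) in HFD and 0.44 (SE 0.53) in ob/ob, and Krt19 by 1.34 (SE 0.46) and -0.01 (SE 0.51). S100a14 minus the mean of the 12 markers averaged -2.68 ± 0.39 (SD, n = 3) for LFD mice, -1.23 ± 0.55 (SD, n = 3) for HFD mice and -2.11 ± 0.33 (SD, n = 2) for ob/ob mice, with every HFD mouse above every LFD and ob/ob mouse. S100a14 too was chosen by its difference between lean and obese mice, which favours such an excess. The part of epithelial content in the S100a14 values was not tested.

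S100a16, a broadly made member, was the exception. It read 9.05, 9.13 and 9.46 in LFD, 9.36, 9.44 and 9.38 in HFD, and 9.06 and 8.96 in ob/ob. LFD replicate 3 was the highest of all mice, and the HFD and LFD ranges overlapped, as did those of ob/ob and LFD, barely (a gap of -0.0058). The differences were 0.18 (SE 0.16) in HFD and -0.20 (SE 0.18) in ob/ob, or 0.30 and -0.08 without LFD replicate 3, and HFD minus LFD was 0.10 without LFD replicate 1. Both ob/ob mice lay below all HFD mice, by -0.38 (SE 0.18) in the means.

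Over the 9 genes, every HFD mouse lay above every LFD mouse for 8, where 12.9% of all genes did so and 12.3% lay below; the S100 genes were chosen on this contrast, so nothing is read from that count. Every ob/ob mouse lay above every LFD mouse for 7 of 9, against 24.1% of all genes, with 21.8% below and 0 of 9 below. For 3 of 9 (S100a8, S100a14 and S100a16) both ob/ob mice lay below all HFD mice, against 5.42% of all genes, and for 0 of 9 above, against 7.92%. The median difference over the 9 was 1.52, 1.32 and -0.38 in HFD against LFD, ob/ob against LFD and ob/ob against HFD, beside 0.03, 0.04 and 0.01 over all genes. The genes were chosen by differences between lean and obese mice, and both comparisons with LFD share the same LFD mice. Nothing is therefore read from the ob/ob counts or from the medians either. The HFD values depended on HFD replicate 1. Without it, the median over the 9 in HFD against LFD was 2.09, and 2812 of all genes had an adjusted limma p under 0.05.

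The acinar mean averaged 17.89 ± 0.27 (SD, n = 3) for LFD mice, 15.91 ± 2.01 (SD, n = 3) for HFD mice and 15.76 ± 2.13 (SD, n = 2) for ob/ob mice. By their means 27 of 27 acinar genes were lower in each obese group, 4 and 23 of them without overlap (12.3% and 21.8% of all genes). Of these 0 passed the adjusted limma test, with 3 and 2 under p of 0.05 before adjustment (2985 and 2831 of all 15047 genes). With the acinar mean as a covariate, HFD minus LFD was 2.21 for S100a8, 1.96 for S100a9 and 1.75 for S100a14. It was less than 0.85 for S100a4 (0.72), S100a6 (0.75), S100a10 (0.74), S100a11 (0.84) and S100a13 (0.36), and 0.21 for S100a16. In ob/ob against LFD the same fit gave 1.999 for S100a4, 0.85 for S100a8, 0.73 for S100a9, 0.80 for S100a10, 0.43 for S100a6, 0.41 for S100a11, 0.33 for S100a13, 0.10 for S100a14 and -0.17 for S100a16. S100a8, S100a9 and S100a14 therefore kept most of their HFD difference in that fit, and S100a4, S100a6, S100a10, S100a11 and S100a13 kept about as much as they lost.

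**Figure D3:**
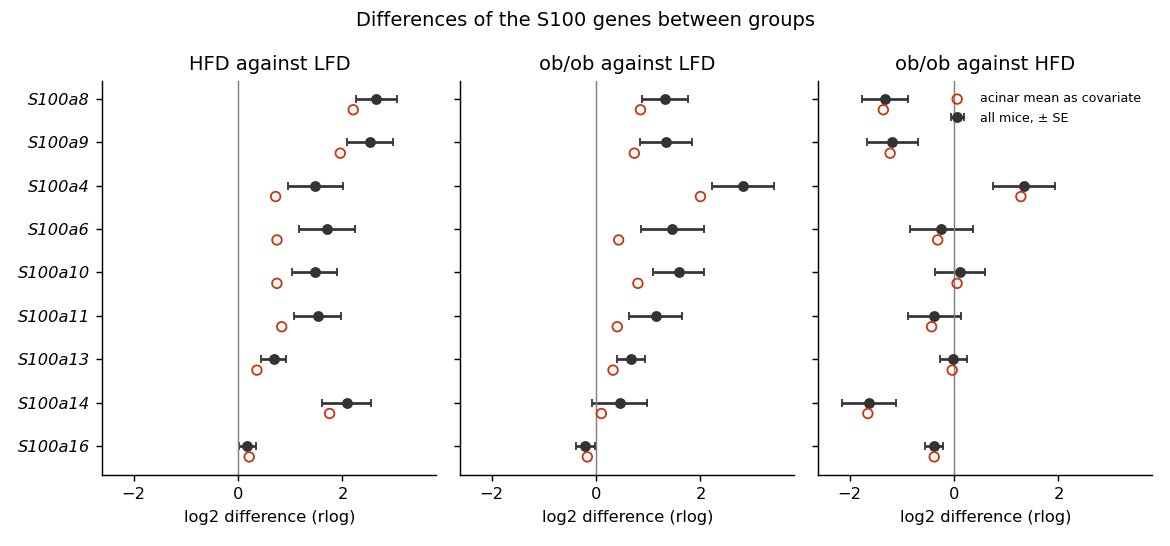
The horizontal axis is the difference of group means (log2, rlog values) for each S100 gene in the 3 comparisons; filled points are the fit on all 8 mice with bars of ± 1 SE, and open circles are the fit with the acinar mean as a covariate. For HFD against LFD the open circles of S100a8, S100a9 and S100a14 stay at 1.75 or above, and those of the other 6 genes lie between 0.21 and 0.84.

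All 9 genes lie on chromosome 3, in 2 clusters. In the first, 181 kb long, S100a13 (90514435 to 90524581), S100a14 (90526856 to 90528837), S100a16 (90537254 to 90543151), S100a4, S100a6 (90612882 to 90624181), S100a8 and S100a9 follow one another. S100a11 (93520488 to 93526287) and S100a10 (93555080 to 93564643) lie 2.82 Mb further on, within 44.2 kb, and all but S100a9 are on the plus strand. Adjacent genes differed widely in size of difference: S100a14 (2.08 in HFD) lies directly beside S100a13 (0.68) and S100a16 (0.18).

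The region from S100a13 to S100a10 holds 120 annotated genes, 74 of them protein coding, and 5 genes other than the 9 had a row. Of these, 3 had every HFD mouse above every LFD mouse, where 12.9% of all genes did so. In ob/ob 1 did so, against 24.1% of all genes. That gene was S100a3, with a gap of only 0.06 and a low mean of 2.44 over all mice. Ivl, which encodes involucrin of the cornified envelope of squamous epithelium, differed by 2.31 in HFD and 0.32 in ob/ob. Sprr2a2 and Sprr2a3, small proline-rich proteins of the same structure, differed by 2.14 and 1.30 in HFD and by 0.35 and -0.04 in ob/ob. Tchh differed by 0.35 and 0.69. The remaining S100 genes with a row were S100a3 (0.86 and 0.55), S100a1 (0.22 and 0.01) and S100b (0.80 and 0.12). Of these 3, 0 passed the adjusted limma test. Under p of 0.05 before adjustment were 1 in HFD and 0 in ob/ob, beside 2985 and 2831 of all 15047 genes.

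**Figure D4:**
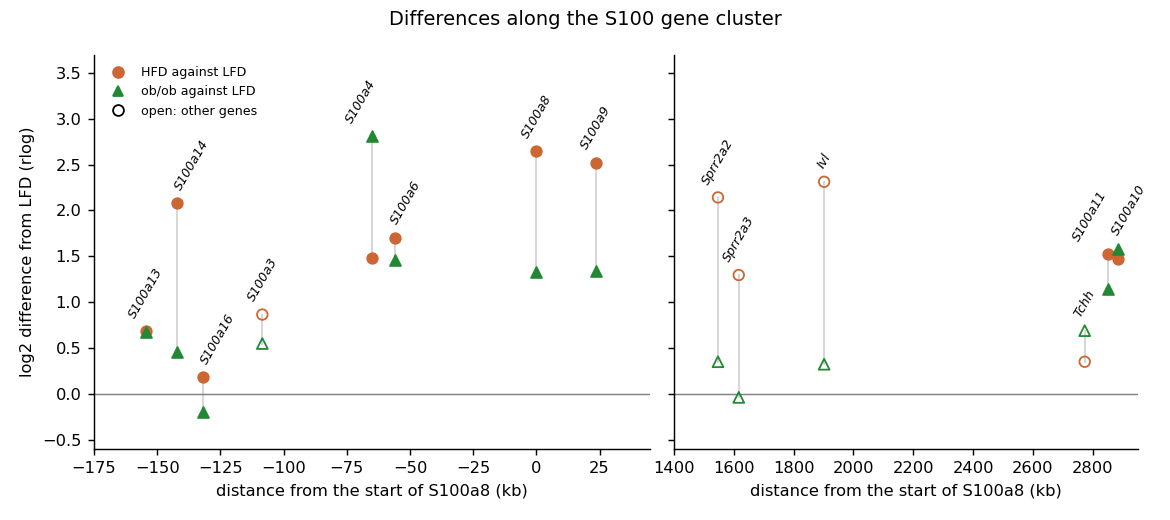
The horizontal axis is the distance from the start of S100a8 (kb) in the left and right stretches of the region, on scales that differ, and the vertical axis is the difference from LFD (log2, rlog values) in HFD (circles) and ob/ob (triangles); open symbols are genes other than the 9. Ivl, Sprr2a2 and Sprr2a3 show HFD values of 2.31, 2.14 and 1.30 above ob/ob values of -0.04 to 0.35.

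Pearson r between pairs of the 9 genes over the 8 mice is given as a description, and no grouping was computed. S100a6, S100a10 and S100a13 were most alike after the calprotectin pair, at 0.963 for S100a6 with S100a10, 0.973 for S100a6 with S100a13 and 0.984 for S100a10 with S100a13. S100a11 was at 0.954 with S100a6 and at 0.905 with S100a9, and S100a14 at 0.883 with S100a8. S100a4 was at 0.893 with S100a10 and at 0.268 with S100a14. S100a16 was between -0.31 and 0.46 with all others.

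**Figure D5:**
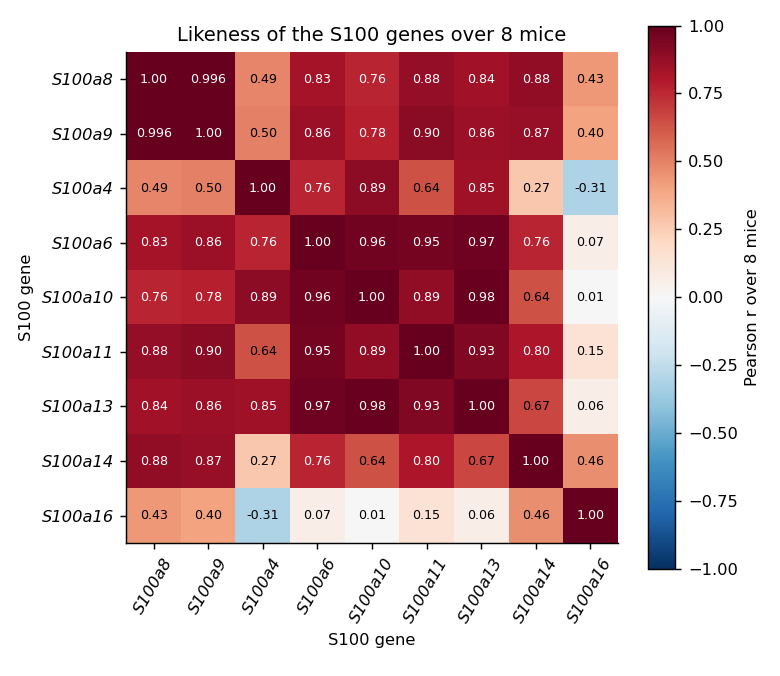
Each cell gives Pearson r of the rlog values of 2 S100 genes over the 8 mice, coloured from -1 (blue) to 1 (red), with no test. S100a8 and S100a9 reach 0.996, and the row of S100a16 stays between -0.31 and 0.46.

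Among all genes, those most like the mean of S100a8 and S100a9 over the 8 mice were Casp6 (r = 0.987), Lrrc66 (0.980), 9130008F23Rik (0.980), Golm1 (0.974), Tarm1 (0.971), Siglecf (0.970), Mmp25 (0.967) and Tfr2 (0.967). Mmp25, a membrane-bound metalloproteinase of leukocytes, differed by 1.50 in HFD and 0.94 in ob/ob, Tarm1 by 1.46 and 0.83, and Siglecf by 1.43 and 0.70. For S100a4 the nearest were Mxra8 (0.991), Eps15 (0.985) and Pcdhb16 (0.981). For S100a6 they were Stom, Parp8 and Loxl4 (0.993 to 0.996), for S100a10 Resf1, Steap2 and Pls3 (0.994 to 0.995), and for S100a11 D1Ertd622e, Gjb5 and Hist1h2ae (0.983 to 0.987). For S100a13 they were Gtse1 (0.989), Foxm1 (0.989) and Ccnb2 (0.987). For S100a14 they were B4galnt3 (0.979), Sp6 (0.977) and Ctla2a (0.973), and for S100a16 Rcan1 (0.919), Pcgf6 (0.918) and Ccdc60 (0.902). Each is among the highest of 15047 values of r over only 8 mice, and they are listed as neighbours only.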

How the data were processed

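Total RNA of whole pancreas from 8 mice (3 LFD, 3 HFD and 2 ob/ob) was sequenced. The genotype of the transplanted organoids is not reported here. Per the submitters' processing notes and methods, the authors checked reads with FastQC, quantified transcripts with Salmon 0.11.3 on Gencode release M18 (GRCm38.p6), summed them to genes with tximport and made rlog values with DESeq2 1.22.2. The deposited values are on a log2 scale, corrected for library size and shrunken where reads are few, which understates differences of low genes. How the genes of the table were selected is not given in the sources used here. No counts were used, so depth is unknown and no interval for counting error is given.

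Groups and replicate numbers were taken from the sample titles, and replicates are different animals. limma 3.58.1 in R 4.3.3 was fitted to all 15047 genes and 8 mice with a mean for each group and a variance trend, and p-values were adjusted by Benjamini-Hochberg over all genes. The study's own test used counts, which is why a linear model on log2 values stands here. The script was tested on simulated data. The 9 genes and the marker and pathway lists were chosen with earlier results of these data known, so no p-value is given for the 9. List genes were named by the up to 4 largest absolute differences in HFD or ob/ob against LFD; for likeness the 8 (calprotectin mean) or 3 highest Pearson r were named. List means are means of rlog values, and acinar shares are sums of 2 to the power of the rlog value. Csf3, Spi1, Plat, S100a1, S100a3 and S100b are named under these rules or as remaining members of the family. Promoter sequence is from RefSeq on GRCm38.p6. Gene positions and exons are from a Gencode annotation of GRCm38 that is a later release than M18. Over the 7 same-numbered pairs, Pearson r of deviations from group means ran from -0.28 to 0.59, highest for HFD replicate 1 with ob/ob replicate 1. In the ob/ob group (n = 2) the deviations are exact opposites, so this check cannot show whether the numbers pair mice. Replicates are different animals, and their numbers were not used to pair them. Alternatives were the variance without trend, the 2 groups alone, genes with a mean rlog of 5 or more, median centring of each mouse, quantile normalization, array weights, a replicate block, the acinar mean as covariate and leaving out each mouse. Python 3.11.15 with pandas 2.3.3 and numpy 2.4.6 made the tables.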

Additional observations from a re-analysis of the deposited data

Results flagged for a closer look

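S100a16 was singled out because all 3 HFD mice lay above its LFD mean of 9.21 and both ob/ob mice below it. The ob/ob minus HFD difference was -0.38 on the log2 scale. LFD replicate 3, at 9.46, was above every HFD mouse, and the difference between the obese groups' responses was not tested.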

How the results depend on the processing

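Groups hold 2 or 3 mice, and depth is unknown. Mean acinar content was lower in both obese groups, through HFD replicates 2 and 3 and ob/ob replicate 2, while HFD replicate 1 and ob/ob replicate 1 lay near LFD. The adjusted count of genes in HFD against LFD (0 with all mice) was 1 with only the groups compared, 6656 with array weights, and 0 to 2812 over leave-one-out fits, highest without HFD replicate 1. In ob/ob against LFD it was 38 with only the groups compared, 1 with the acinar covariate and 0 to 89 over leave-one-out fits (89 without HFD replicate 1, 61 without ob/ob replicate 1). In ob/ob against HFD it was 1 with the acinar covariate and 0 to 1 over leave-one-out fits. The array weights behind the 6656 were 9.36 for HFD replicate 2, 0.27 for HFD replicate 1 and 0.53 for HFD replicate 3. The HFD mean in that fit was therefore mostly HFD replicate 2. The S100 median was 0.75 in HFD and 0.43 in ob/ob against LFD with the acinar covariate. Over leave-one-out fits it was 1.31 to 2.09 in HFD against LFD, 0.84 to 1.41 in ob/ob against LFD, lowest without ob/ob replicate 2, and -0.89 to -0.0461 in ob/ob against HFD, lowest without HFD replicate 1. S100 genes whose ob/ob mice all lay below HFD numbered 3 to 6 (6 without HFD replicate 1), and above 0 to 2 (2 without ob/ob replicate 1). Where a mouse is left out of ob/ob, the lone mouse is assumed to vary like the others.

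With a replicate block the adjusted count stayed at 0 in all 3 comparisons, with 3255, 3243 and 467 genes under 0.05 before adjustment and S100 medians of 1.52, 1.55 and -0.26; the shared numbers are not known to pair mice. Of 432 values of single S100 genes under the alternatives, 414 moved by less than the spread within groups, 18 moved by more and 10 changed sign, all in ob/ob against HFD: 3 of S100a6 (from -0.24, range -0.89 to 0.38), 3 of S100a10 (from 0.11, range -0.63 to 0.85) and 4 of S100a13 (from -0.01, range -0.27 to 0.24). The causes of these shifts were not tested.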

Other observations

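Adipocyte markers had another order than the S100 genes. In HFD 3 of 9 were higher and 6 lower than in LFD, and in ob/ob 4 were higher and 5 lower. With 0 past the adjusted limma test, 1 in each comparison was under p of 0.05 before adjustment (2985 and 2831 of all 15047 genes). Cfd, which encodes adipsin, read 8.41, 7.67 and 7.50 in LFD, 5.97, 6.78 and 5.79 in HFD, and 6.31 and 5.15 in ob/ob. All obese mice were below all LFD mice. Cidec, a lipid droplet protein, differed by 0.47 (SE 0.44) in HFD and 0.32 (SE 0.49) in ob/ob.

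Lcn2, which encodes a siderophore-binding protein of neutrophils and of injured epithelium, went apart from calprotectin in the ob/ob mice. It read 10.69 in ob/ob replicate 1, above all 7 other mice, and 8.05 in ob/ob replicate 2, within the LFD range of 7.31 to 8.65. S100a8 in the same mice was 7.48 and 7.17.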
